A study of Mus musculus with 6 samples.

Results

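The lysyl oxidase genes of the mouse were followed in NMuMG, a line of epithelial cells from the normal mammary gland of the mouse. Under TGF-beta these cells take on a mesenchymal form (epithelial to mesenchymal transition, EMT). The members were the rows of the deposited table whose symbol was Lox, Loxl1, Loxl2, Loxl3 or Loxl4. Of these 5 symbols, 4 were found among the 14526 genes of the table, namely Loxl1, Loxl2, Loxl3 and Loxl4. Lox itself was not analysed here. The family was picked with results of the siMnt against siNTC comparison in view, so its own differences between these groups are given as descriptions. Which members passed in the fit over all genes is given only beside the share of all genes, and nothing is read from it.

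RNA was sequenced in 6 libraries. In 3 the cells had received siRNA against Mnt (siMnt) and in 3 a non-targeting control siRNA (siNTC), and both groups were taken at day 4 of TGF-beta. Per the labels, the siRNA went on together with TGF-beta 16 hours after plating and both were renewed on day 2, so every level below is a level under TGF-beta in 1 cell line. Mnt encodes a repressor of transcription, which dimerises with Max and competes with Myc for E-box sequences.

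Lysyl oxidases are secreted, copper-dependent amine oxidases. They oxidise lysines of collagen and elastin to aldehydes, which then join into the covalent cross-links that make matrix stiff and insoluble. Lox and Loxl1 form a subgroup whose propeptide is cut off by Bmp1, whereas Loxl2, Loxl3 and Loxl4 carry scavenger receptor cysteine-rich (SRCR) domains ahead of the catalytic domain. In EMT, Loxl2 has been studied for its links to the repressor Snai1 and to basement membrane collagen IV.

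The catalytic domain is what the members share, and its copper-binding motif is shown here because it marks every member found as an enzyme of the family. The stretch was read from the longest transcript of each gene in GENCODE M21 (build GRCm38), on the coding strand, and is 33 bases long in each gene. The capitals mark the 4 histidine codons of this motif.
Loxl1: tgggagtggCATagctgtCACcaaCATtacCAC
Loxl2: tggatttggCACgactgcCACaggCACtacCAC
Loxl3: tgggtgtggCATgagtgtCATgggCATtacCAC
Loxl4: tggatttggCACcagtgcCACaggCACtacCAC
Loxl2, on chromosome 14, and Loxl4, on chromosome 19, were alike at 93.9% of these bases. Loxl3, on chromosome 6, matched each of them at 75.8%. Loxl1, on chromosome 9, also matched Loxl3 at 75.8%, and it matched Loxl2 at 66.7% and Loxl4 at 63.6%. Over whole transcripts the longest run of identical bases between any pair of members was 28, between Loxl1 and Loxl2, so the members are not near-identical copies.

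The libraries held 22323050 to 42193294 reads assigned to genes, and values are the authors' normalised read counts, which are reads divided by 1 size factor per library. Mnt stood at 613, 557 and 749 normalised read counts in siMnt replicates 1, 2 and 3, against 1316, 896 and 1596 in siNTC, so the siMnt level was 50.4% of the control level with no overlap (log2 fold change -0.96 ± 0.22 SE, adjusted p = 0.0546 by limma, and 0.00442 with the replicate number as an added term, the replicate block). For Mnt by itself, the two-sided exact permutation p was 0.1, and no smaller one can be had from 3 libraries against 3. Across the 12568 genes with a mean of at least 10, limma placed 494 past a Benjamini-Hochberg adjusted p of 0.05, 322 higher and 172 lower in siMnt, and 512 higher and 500 lower once trends with GC content and length were removed. No gene was past it without siMnt replicate 1, siMnt replicate 2 or siNTC replicate 1, and 2012 were past it without siNTC replicate 3, which lay apart from the other controls. Epithelial keratins were high in all libraries, with Krt18 at 54491 to 61189 in siMnt and 43433 to 75987 in siNTC, and the mesenchymal marker Vim was at 8983 to 16373 in siMnt and 30051 to 51245 in siNTC. Ptprc, the marker of all leukocytes, was at or below 3.58 in siMnt and 6.65 in siNTC. In bulk RNA, fewer cells of a kind and less RNA per cell cannot be told apart.

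Loxl2 was much higher in siMnt cells. Its enzyme oxidises collagen IV outside the cell. Loxl2 had 3354, 2549 and 1695 normalised read counts in siMnt replicates 1, 2 and 3, against 685, 543 and 683 in siNTC. Every siMnt library was above every siNTC library, and the lowest siMnt library was replicate 3. The siMnt libraries spread far more widely (2532 ± 830, SD, n = 3) than the siNTC libraries (637 ± 81.6, SD, n = 3). On the log2(value + 1) scale the difference was 1.94 ± 0.24 (SE), a 3.84-fold higher level in siMnt. Within replicate numbers 1, 2 and 3 it was 2.29, 2.23 and 1.31. These values rest on 1383 to 3102 reads per siMnt library and 490 to 1058 per siNTC library, so counting error is small beside the spread between libraries. In GENCODE M21 the non-coding gene Gm27177 overlaps 244 bases of a Loxl2 exon on the opposite strand, and Gm27177 was not analysed here.

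**Figure D1:**
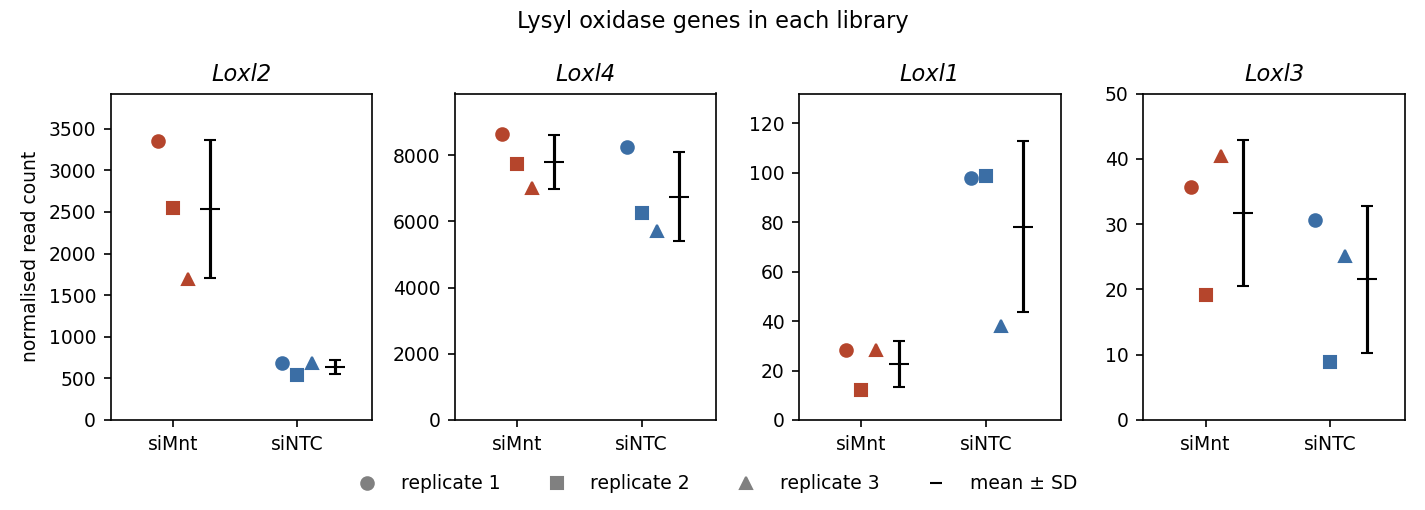
Normalised read count of each lysyl oxidase gene in each library (y axis, linear from 0, a separate scale per gene), with siMnt left and siNTC right. Symbols are replicates 1, 2 and 3, and the bar beside each group is its mean ± SD (n = 3). Loxl2 was at 1695 to 3354 in siMnt and at 543 to 685 in siNTC, whereas the groups overlapped for Loxl4 and Loxl3.

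Loxl4 was the most abundant member and hardly differed between the groups. It is an SRCR-domain lysyl oxidase like Loxl2. Its level was 8640, 7733 and 7011 in siMnt replicates 1, 2 and 3, against 8255, 6248 and 5720 in siNTC. The groups overlapped, since siNTC replicate 1 was above siMnt replicates 2 and 3. The log2 difference was 0.22 ± 0.16 (SE), or 1.17-fold, and was 0.07, 0.31 and 0.29 within the replicate numbers. In the RefSeq promoter table (GRCm38.p6, a window of 300 bases around each gene's start, not printed here) Loxl4 was the 1 member found. Its window held no CACGTG, the E-box that Mnt and Myc bind with Max (held by 9.42% of the 14288 promoters of genes in the table), no CAGGTG (18.5%) and no ACGTG (24.2%), and 1 GCGTG (47.8%), counting both strands.

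Loxl1, whose enzyme is needed for elastic fibre upkeep in mice, was low and lay on the other side. It had 28.1, 11.9 and 28.2 normalised read counts in siMnt replicates 1, 2 and 3, against 97.8, 98.6 and 38.1 in siNTC. All siMnt libraries were below all siNTC libraries, but siNTC replicate 3 was nearer to siMnt than to the other controls. The log2 difference was -1.71 ± 0.48 (SE), so that the siMnt mean (22.7 ± 9.36, SD, n = 3) was 29.1% of the siNTC mean (78.2 ± 34.7, SD, n = 3). Within the replicate numbers it was -1.76, -2.94 and -0.42. The gene was seen in only 10 to 26 reads per siMnt library and 59 to 112 per siNTC library.

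Loxl3, which mice need for palate and spine formation, was the other member at a low level. It had 35.7, 19.1 and 40.4 normalised read counts in siMnt replicates 1, 2 and 3, against 30.6, 8.86 and 25.2 in siNTC. The groups overlapped, and replicate 2 was the lowest library of both groups. The log2 difference was 0.63 ± 0.51 (SE), and it was positive within all 3 replicate numbers (0.22, 1.03 and 0.66), on 8 to 39 reads per library. In GENCODE M21 an exon of Loxl3 overlaps one of Htra2 on the opposite strand by 369 bases. Htra2 was far more abundant, at 1094 to 1206 in siMnt and 1098 to 1430 in siNTC, and no source used here says whether reads were counted by strand, so part of the Loxl3 reads may belong to Htra2.

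Over the fit of all 12568 genes, 1 of the 4 members (Loxl2) was past the adjusted p of 0.05, where 3.93% of all genes were. With the replicate block 2 members (Loxl2 and Loxl1) were past it, where 15.9% of all genes were. The same 2 were past it by DESeq2 on the recovered reads, where 11.6% of all genes were. Of the 6 fits that left out 1 library, Loxl2 was past it in 3 and Loxl1 in 1, where 0% to 16% of all genes were. The groups did not overlap for 2 members, as they did not for 31.5% of the tested genes. Since the family was chosen on this comparison, nothing is read from these counts. The direction of each member was the same in all 6 fits that left out 1 library. For Loxl2 the log2 difference ran from 1.71, without siMnt replicate 1, to 2.21, without siMnt replicate 3. For Loxl1 it ran from -2.16, without siNTC replicate 3, to -1.32, without siMnt replicate 2. Loxl3 ranged from 0.12, without siNTC replicate 2, to 0.96, without siNTC replicate 1, and Loxl4 from 0.11, without siNTC replicate 3, to 0.38, without siNTC replicate 1.

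**Figure D2:**
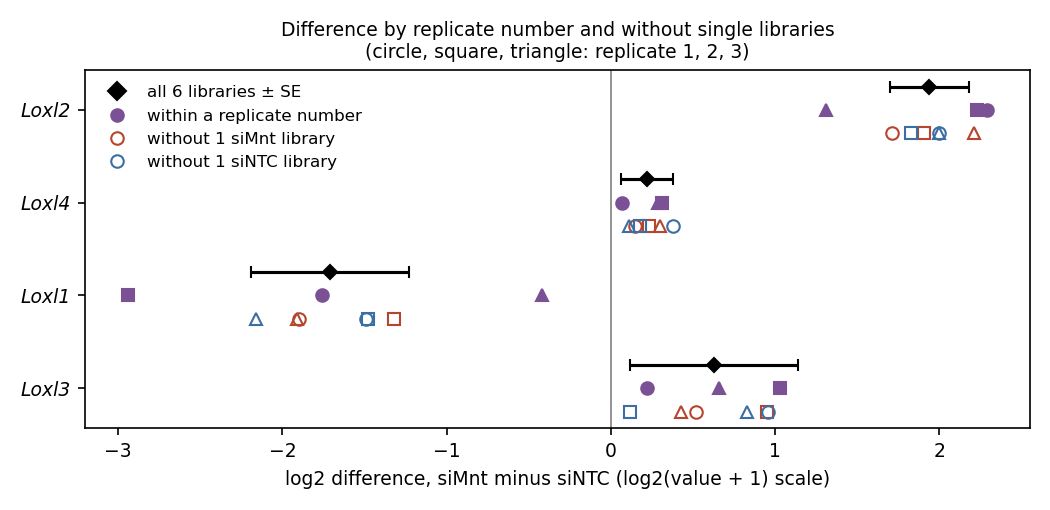
Log2 difference in log2(value + 1) between siMnt and siNTC, positive where siMnt was higher (x axis), for each member (y axis). Diamonds are the fit of all 6 libraries with its SE, filled symbols the difference within replicate number 1, 2 or 3 (circle, square, triangle), and open symbols the fits without 1 siMnt or 1 siNTC library. Loxl2 stayed between 1.31 and 2.29 and Loxl1 between -2.94 and -0.42.

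Levels were compared between members per kilobase of the longest transcript (3.297 kb for Loxl1, 5.316 for Loxl2, 4.098 for Loxl3 and 3.738 for Loxl4). In siMnt the order was Loxl4 (2085 ± 218 normalised read counts per kb, SD, n = 3), Loxl2 (476 ± 156), Loxl3 (7.74 ± 2.73) and Loxl1 (6.90 ± 2.84). In siNTC it was Loxl4 (1803 ± 358), Loxl2 (120 ± 15.4), Loxl1 (23.7 ± 10.5) and Loxl3 (5.26 ± 2.76). Loxl4 was above Loxl2, and Loxl2 above the other members, in all 6 libraries. The ranges of Loxl3 and Loxl1 overlapped in siMnt, with Loxl3 above Loxl1 in each library, and did not overlap in siNTC. The per-kb ratio of Loxl4 to Loxl2 was 3.66, 4.32 and 5.88 in siMnt replicates 1, 2 and 3, against 17.1, 16.4 and 11.9 in siNTC. Loxl2 thus made up 21.3%, 18.8% and 14.4% of the summed per-kb level of the 4 members in siMnt, against 5.43%, 5.65% and 7.67% in siNTC. With coding length in place of transcript length the order of the members was the same in both groups.

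**Figure D3:**
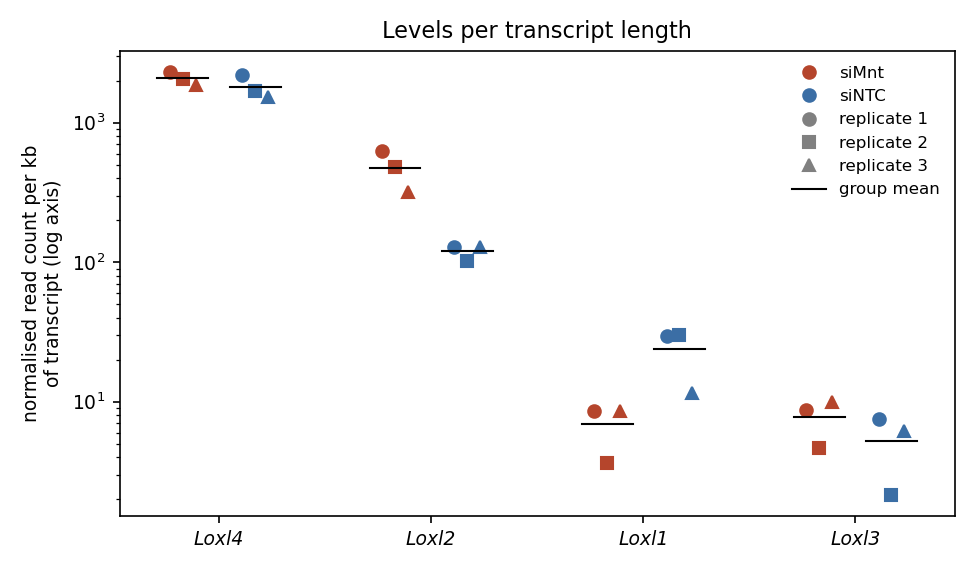
Normalised read count per kilobase of transcript (y axis, log axis) of each member, with siMnt left of siNTC. Symbols are replicates 1, 2 and 3 and lines are group means. Loxl4 was at 1530 to 2311 per kb and Loxl2 at 319 to 631 in siMnt and 102 to 129 in siNTC, with Loxl1 and Loxl3 below 30 throughout.

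The enzymes act on a matrix made by other genes, which were grouped into 8 lists by role and tested in the same fit over all genes. These lists were drawn up with earlier results of these data known. Of 87 tested genes in them 3 rose, 9 fell and 75 did not pass, so 13.8% passed against 3.93% of all genes tested (2.56% higher and 1.37% lower). Of the 3 that rose, Serpinh1 reached the mean needed for testing only through the siMnt libraries. With the replicate block 11 rose and 17 fell (32.2%, against 15.9% of all genes). Leaving out siNTC replicate 3 gave 12 that rose and 14 that fell (16% of all genes passed). Leaving out siMnt replicate 3 or siNTC replicate 2 gave 1 that rose and 4 that fell each (0.995% and 1.73% of all genes passed), and without any one of the other 3 libraries 0 passed (0% of all genes). All 12 genes that passed with all libraries also passed without siNTC replicate 3. Without siMnt replicate 3 these were Pcolce, Ltbp4, Col4a3, Col4a4 and Steap4, and without siNTC replicate 2 they were Pcolce, Bmp1, Fbn1, Col4a3 and Col4a4. Adjusted p-values below are from limma over all tested genes.

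Among the proteases and extracellular partners of lysyl oxidases, 4 of 10 tested genes fell and 1 rose, where 3.93% of all genes passed. The list median was -1.10 on the log2 scale (all genes -0.01). Bmp1, the protease that removes the propeptide of Lox and Loxl1 and of fibrillar procollagens, had 3455, 3087 and 3512 normalised read counts in siMnt replicates 1, 2 and 3, against 9255, 6675 and 6047 in siNTC. It fell to 45.7% of the siNTC level (log2 fold change -1.11 ± 0.17, adjusted p = 0.0226). The pair of genes for enhancers of Bmp1 activity on procollagen went in opposite directions. Pcolce rose to 3917, 3895 and 3552 in siMnt, against 1389, 1612 and 2103 in siNTC (1.17 ± 0.16, adjusted p = 0.0168). Pcolce2 fell to 55.1, 59.7 and 50.2 in siMnt, against 266, 248 and 112 in siNTC (-1.81 ± 0.34, adjusted p = 0.0343), with siNTC replicate 3 the nearest control to siMnt. The difference between their changes was not tested.

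The other 2 genes of this list that fell belong to elastic fibres. Fbn1, which encodes the microfibril protein fibrillin-1, had 94.1, 81.1 and 88.2 normalised read counts in siMnt replicates 1, 2 and 3, against 254, 166 and 192 in siNTC (-1.19 ± 0.21, adjusted p = 0.0313). Ltbp4, a latent TGF-beta-binding protein of elastic fibres, had 139.5, 162 and 332 in siMnt, against 703, 459 and 594 in siNTC (-1.55 ± 0.33, adjusted p = 0.0439). All siMnt libraries were below all siNTC libraries for both genes. Fibronectin, Fn1, a scaffold that binds lysyl oxidase, was at 94444, 67382 and 105256 in siMnt, against 269132, 167310 and 145991 in siNTC, and did not pass (-1.10 ± 0.29, adjusted p = 0.0734, 0.0208 with the block).

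The substrates were listed by collagen type. Of the 5 tested collagen IV genes, which encode the chains of basement membrane collagen, 2 fell and 0 rose (list median -0.48), where 3.93% of all genes passed. Col4a3 had 129, 85.9 and 164 normalised read counts in siMnt replicates 1, 2 and 3, against 371, 275 and 388 in siNTC (-1.47 ± 0.27, adjusted p = 0.0313). Col4a4, the partner chain of Col4a3, had 175, 210.0 and 268 in siMnt, against 528, 405 and 632 in siNTC (-1.26 ± 0.22, adjusted p = 0.0313). The groups were well apart for both. Col4a5 was at 7893, 5924 and 6215 in siMnt, against 3839, 2779 and 5698 in siNTC, and did not pass (0.75 ± 0.25, adjusted p = 0.123, 0.0272 with the block). Of the 12 symbols listed for fibrillar collagens and elastin, 7 were found and 5 were tested, so the others are not covered. Of these 5 genes 0 passed by limma, nor by edgeR or DESeq2 on the recovered reads (3.93%, 3.54% and 11.6% of all genes passed). The list median was 0.13 and 1 gene had an unadjusted p under 0.05. Col2a1 (-1.40 ± 0.54, adjusted p = 0.168), Col11a2 (1.19 ± 0.60, 0.275) and Col5a1 (0.45 ± 0.44, 0.569) had the smallest adjusted p-values. Col11a2 was at 0.48 without siNTC replicate 2.

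Enzymes that hydroxylate collagen and help it fold showed 2 genes that rose and 0 that fell among 19 tested, with a median of 0.13 (3.93% of all genes passed). By edgeR the counts were also 2 and 0 (3.54% of all genes passed). By DESeq2, and without siNTC replicate 3, 3 rose and 3 fell (11.6% and 16% of all genes passed). With the replicate block 3 rose and 2 fell (15.9%). Once trends with GC content and length were removed, 2 rose and 2 fell (1012 genes in all). Serpinh1, the collagen chaperone Hsp47, rose to 78.9, 72.8 and 50.2 normalised read counts in siMnt replicates 1, 2 and 3, against a very low 14.0, 7.75 and 3.23 in siNTC (3.03 ± 0.49, adjusted p = 0.0247). P4ha2, a catalytic subunit of collagen prolyl 4-hydroxylase, rose to 6099, 4790 and 5389 in siMnt, against 3512, 3541 and 3507 in siNTC (0.62 ± 0.12, adjusted p = 0.0384). The siNTC libraries of P4ha2 had an SD of only 18.6, and all siMnt libraries were above them. Sparc, a collagen-binding glycoprotein, was at 16206, 14269 and 15717 in siMnt, against 24441, 25010 and 20690 in siNTC, just outside the threshold (-0.60 ± 0.13, adjusted p = 0.0509, 0.0204 with the block).

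**Figure D4:**
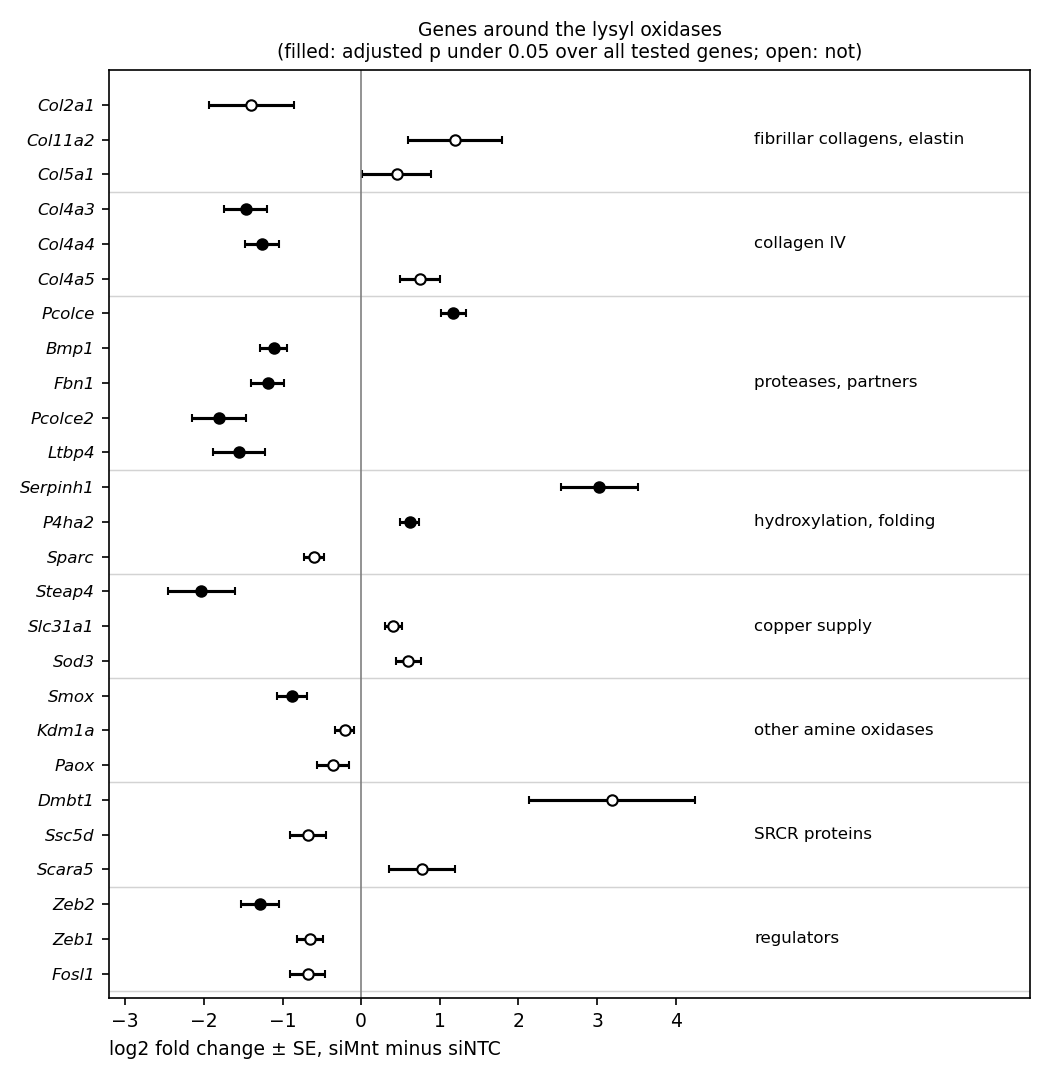
Log2 fold change, siMnt minus siNTC, with its SE (x axis) for the genes named from each list (y axis). Filled circles passed at an adjusted p under 0.05 over all tested genes and open circles did not. Bmp1, Pcolce2, Fbn1, Ltbp4, Col4a3, Col4a4, Steap4, Smox and Zeb2 lie left of 0 and Pcolce, Serpinh1 and P4ha2 right of it among the filled circles.

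Copper supply, on which the enzymes depend, held 1 gene that fell and 0 that rose among 17 tested (median 0.03), where 3.93% of all genes passed. A count of 1 is not read as a result about this list. Steap4, a metalloreductase of iron and copper, had 117, 52.5 and 174 normalised read counts in siMnt replicates 1, 2 and 3, against 403, 578 and 317 in siNTC (-2.03 ± 0.42, adjusted p = 0.0434). Slc31a1, the copper importer of the cell surface, was at 3555, 3404 and 3423 in siMnt, against 2460, 2576 and 2810 in siNTC. It did not pass (0.41 ± 0.11, adjusted p = 0.0727, 0.0356 with the block), nor did the copper-dependent extracellular superoxide dismutase Sod3 (0.60 ± 0.16, adjusted p = 0.0798, 0.0198 with the block). Of 7 other amine oxidases tested 1 fell (median -0.08), and this count is likewise not read as a result about the list. It was the spermine oxidase Smox, with 768, 977 and 901 in siMnt, against 1691, 2003 and 1253 in siNTC (-0.88 ± 0.19, adjusted p = 0.0457). The histone demethylase Kdm1a and the polyamine oxidase Paox did not pass (adjusted p = 0.311 and 0.33). Of 6 other genes with SRCR domains 0 passed by limma, edgeR or DESeq2 (median 0.18), where 3.93%, 3.54% and 11.6% of all genes passed. By limma 2 had an unadjusted p under 0.05. Dmbt1 was at 47.8 to 61.6 in siMnt and 0 to 28.4 in siNTC and did not pass (adjusted p = 0.121, 0.0325 with the block), and Ssc5d and Scara5 did not pass (adjusted p = 0.131 and 0.303).

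Of 18 tested regulators tied to the family, 1 fell and 0 rose (median -0.14), where 3.93% of all genes passed. A count of 1 is not read as a result about these regulators. Zeb2, an EMT repressor, had 490, 452 and 520 normalised read counts in siMnt replicates 1, 2 and 3, against 1539, 1405 and 786 in siNTC (-1.29 ± 0.24, adjusted p = 0.0353). Its lowest control, siNTC replicate 3, was still above all siMnt libraries. Zeb1 (-0.65 ± 0.17, adjusted p = 0.0763, 0.012 with the block) and the AP-1 factor Fosl1 (-0.68 ± 0.22, adjusted p = 0.118, 0.0457 with the block) did not pass. Summed markers of fibroblasts, 4 of 7 found, were at 410 to 564 in siMnt and 308 to 396 in siNTC, led by Pdgfrb, with Lum, Thy1 and Col3a1 not analysed here. None of those 4 passed (Pdgfrb adjusted p = 0.0854, 0.0147 with the block). Macrophage markers, 6 of 8 found, summed to 3376 to 3474 in siMnt and 2199 to 2806 in siNTC, with Csf1r at 1856 to 2074 in siMnt and 757 to 1196 in siNTC. Csf1r rose, as did Itgam (adjusted p = 0.0242 and 0.0493). Itgam was low, at 28.1, 17.9 and 25.7 in siMnt replicates 1, 2 and 3, against 5.24, 4.43 and 8.40 in siNTC. Its siNTC mean of 6.02 was below the mean needed for testing, which it reached through the siMnt libraries. Of the 6 fits that left out 1 library, Itgam passed in 1 and Csf1r in 2. Cd14 and Cd68 were slightly lower in siMnt and did not pass (log2 fold change -0.15 and -0.19, adjusted p = 0.531 and 0.765), and Lyz2 and Ptprc were too low to be tested. Endothelial markers, 2 of 5 found, summed to 41.8 to 49.0 in siMnt and 65.2 to 99.6 in siNTC, led by Cdh5. The adipocyte marker Cidec, 1 of 4 found, was at 13.0 to 19.1 in siMnt and 5.24 to 30.4 in siNTC. The part of these markers in the matrix results was not tested.

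The genes whose profile over the 6 libraries was most like that of Loxl2 were found by the root mean square difference of log2(value + 1) after centring each gene on its own mean. All genes with a mean of at least 50 were compared. The likeness holds the difference between groups and the deviations of single libraries together, and has no test. Genes picked by it share the pattern of the member through that choice. Thsd4, a thrombospondin-repeat protein that binds fibrillin, was nearest, at 0.18 log2 units. It had 121, 109 and 77.2 normalised read counts in siMnt replicates 1, 2 and 3, against 22.7, 16.6 and 24.6 in siNTC. Like Loxl2 it was lowest in replicate 3 among the siMnt libraries and in replicate 2 among the controls. Pcx, pyruvate carboxylase (0.19), and Il5ra, the interleukin 5 receptor alpha chain (0.21), came next, and 110 genes lay within 0.5 of Loxl2. The nearest to Loxl1 were Ccbe1 (0.28), Ctla2a (0.30) and Odaph (0.30), with 32 genes within 0.5. Ccbe1 had 544, 430 and 599 in siMnt, against 2702, 2410 and 1089 in siNTC. Its siNTC replicate 3 stood between the other controls and siMnt, a trait of Loxl1 that entered the choice of Ccbe1. Near to Loxl3 were Col6a3 (0.19) and Setd1b (0.21), which shared its low value in replicate 2 of both groups, with 1010 genes within 0.5. Nearest to Loxl4 were Tk1, Dtl and Mpp6 (0.06 each), with 9887 genes within 0.5, since a gene that varies this little resembles most others.

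**Figure D5:**
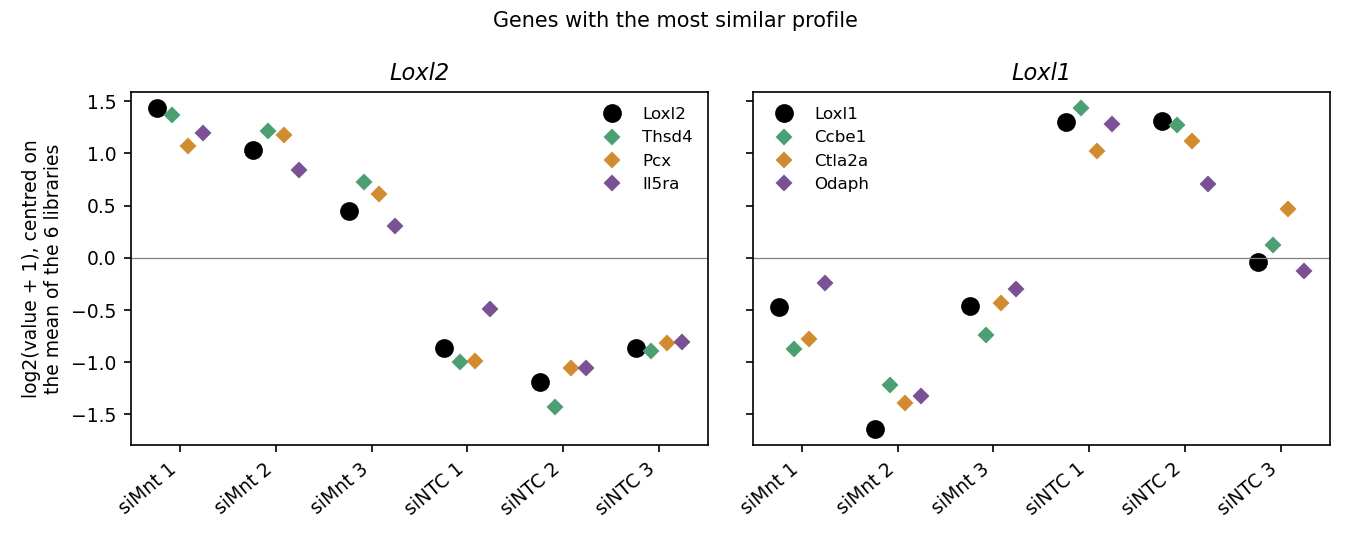
Log2(value + 1) of Loxl2 (left) and Loxl1 (right) and of the 3 genes with the most similar profile, each centred on its mean over the 6 libraries (y axis), in each library (x axis, siMnt then siNTC replicates 1 to 3). Black circles are the lysyl oxidase gene and diamonds the other genes. The genes near Loxl2 were high in all siMnt libraries, and those near Loxl1 were high in siNTC replicates 1 and 2 and lower in siNTC replicate 3.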

How the data were processed

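RNA sequencing of 6 libraries was used. Per the submitters' processing notes, TopHat2 2.1.0, DESeq2 and the mouse build mm9 were used. No source used here gives the read counter, annotation or strand setting. The authors' deposited table holds normalised values, a non-negative signal per gene. Judged by the low values, each is a read count divided by 1 factor per library, and 99.75% of the values above 0 were within 0.05 of a whole read. Libraries held 22323050 to 42193294 recovered reads, which sets the precision of low genes.

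Genes with a mean of at least 10 were tested on log2(value + 1) with limma 3.58.1 in R 4.3.3 (trended empirical Bayes, 2 groups, all 6 libraries, Benjamini-Hochberg over all tested genes). This scale understates changes of low genes. Whether replicates were grown as separate cultures is not in the labels. The p-values therefore describe the scatter of these samples, and that scatter may be technical. Same-numbered libraries of the groups deviated together (correlations across genes of 0.28, 0.50 and 0.35). The labels do not say that the replicate numbers pair cultures, and the correlations come from these same data, so they cannot settle it. The main fit left the number out, and a fit with the number as a block was an alternative. Others were pseudocounts, filters, scalings, variance models, edgeR 4.0.16 and DESeq2 1.42.0 on recovered reads, and each library left out. A GC and length correction (loess per library, GENCODE M21, a different build, 99.3% of tested genes matched) was chosen after seeing the data. Scripts were tested on simulated data. Tables were made with Python 3.11.15 and pandas 2.3.3.

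The members and gene lists were chosen with earlier results of these data known. Genes named are Mnt, the members, in each list the 3 with the smallest adjusted p and any others that passed, the 3 nearest in profile to each member, the markers, and Htra2, added after its overlap was seen. One gene that this rule names is not reported here. GENCODE M21 served only for lengths, overlaps and the printed sequences.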

Additional observations from a re-analysis of the deposited data

How the results depend on the processing

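The log2 difference of the 4 lysyl oxidase genes kept its direction under every alternative run, and moved by less than the spread between replicates. For the fits without 1 library the size of the move was bounded in advance. Leaving out 1 of 3 libraries cannot move a group mean by as much as that spread. The replicate block and the variance settings of limma leave the difference as it is, so they are no check of it. Outside the fits that left out a library it ranged from 1.82 to 2.00 for Loxl2, from -1.78 to -1.54 for Loxl1, from 0.53 to 0.66 for Loxl3 and from 0.14 to 0.24 for Loxl4. Loxl3 falls under a mean of 50 and has no value with that filter. The number of genes past the threshold depended on the processing, the cause of which was not tested. It was 494 in all, 322 with a mean of at least 50 (fewer genes tested), 306 without the trend, 1998 with the replicate block, 1457 by DESeq2 and 1012 after the GC and length correction, and from 0 to 2012 when a library was left out. Without siMnt replicate 1, siMnt replicate 2 or siNTC replicate 1, where limma called 0, 1816, 1920 and 2193 genes had an unadjusted p under 0.05. Of the list genes, 3 rose and 9 fell; 11 and 17 with the replicate block, 7 and 14 by DESeq2, 5 fell without the trend, 4 rose and 12 fell after the GC and length correction, and from 0 to 12 rose and from 0 to 14 fell without single libraries. Mnt passed with the replicate block (-0.96), by DESeq2 (-0.98), and after the GC and length correction (-1.07), and ranged from -1.19 to -0.77 without single libraries. Col5a1 turned to -0.04 without siNTC replicate 2 and reached 0.79 without siNTC replicate 3. The replicate block changed the call of no list gene named in the text other than those given with a block value. With a pseudocount of 5, the 3 genes nearest in profile shared 2 with the main choice for Loxl2 and Loxl1 and 3 for Loxl3 and Loxl4. Depth limits Loxl1 and Loxl3, with as few as 10 and 8 reads in a library.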

Other observations

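Some genes of the lists were under the mean of 10 and were not tested, 13 in all. Among them, chosen after their values were seen, was Postn, which encodes periostin, a matrix protein that helps Bmp1 act on lysyl oxidase. It was seen in 1, 0 and 0 reads in siMnt replicates 1, 2 and 3, against 16, 11 and 13 reads in siNTC. The microfibril gene Mfap4 had 1, 0 and 0 reads in siMnt, against 8, 4 and 7 in siNTC. Fmod, a collagen-binding proteoglycan that modulates lysyl oxidase, lay the other way, with 6, 7 and 11 reads in siMnt, against 2, 0 and 4 in siNTC. The groups did not overlap for these 3 genes, nor for Cd5 and Il4i1, which like Fmod were higher in siMnt by normalised value. They also did not overlap for 31.5% of the tested genes, but those have a mean of at least 10, so the comparison is not a like one. The counts are too low for a fold change to be given.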
